A study of Zea mays with 36 samples.

Results

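The genes described here are the maize OCL homeobox genes ocl1, ocl2, ocl3 and ocl4 together with gl8 and plt2, which serve the lipid cover of the epidermis. They were found by their symbols in the gene annotation of the slides, and make up 6 of the 740 named genes that had values on either of 2 sets of cDNA slides. Of these, 4 genes had values among the 582 named genes of slide set 1 and 4 among the 455 of slide set 2, since ocl1 and ocl4 lay on both sets. The genes had 13 spots, 12 of them with values, and 1 ocl3 spot held none. No nucleotide or protein sequence of these genes was used here.

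Shoot apical meristems (SAM) were compared with seedlings on 2-colour slides, to find genes used preferentially in the SAM. The SAM group was laser-captured meristem tissue with the P0 and P1 leaf primordia, each RNA pool holding 6 to 10 meristems. The seedling group was the whole above-ground part of plants, 6 seedlings to a pool, which holds the meristem and the epidermis of every leaf as well. Both came from the same batch of 14-day-old plants of the inbred line B73, and the labels name no treatment or mutation. Each of 6 biological replicates was a SAM pool and a seedling pool on the same slide, on 1 slide of each set, which gave 12 slides. SAM RNA carried Cy3 in odd and Cy5 in even replicates. SAM RNA was extracted with a kit for captured cells and seedling RNA with a phenol solution, so a difference in extraction cannot be told apart from a difference in tissue.

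The OCL genes, named for the outer cell layer, encode class IV homeodomain-leucine zipper proteins of the kind that mark the surface layer of plant meristems and its product, the epidermis. In maize, OCL1 is known to act on lipid and cuticle genes, and OCL4 to restrain hair formation on leaves and to act in the anther. GL8 (glossy8) is a ketoacyl reductase of the fatty acid elongase, which makes the very-long-chain fatty acids of surface wax, and plt2 encodes a phospholipid transfer protein, a family linked to the movement of lipids to the cuticle.

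Each value below is a log2 ratio of the 2 channels of a slide, averaged over the 3 scans of that slide, which were taken at low, medium and high settings of laser and detector. A ratio says nothing of how strongly a gene is expressed, so no gene's level is given. No source used here says which tissue is the numerator. The direction was taken from a list of photosynthesis genes, with medians of -5.72 on set 1 and -5.32 on set 2. Of these genes, 8 of 10 on set 1 and 9 of 9 on set 2 were called below 0, where 45.2% and 45.7% of all named genes were. Of the other 2 on set 1, Cab-m7 was called above 0 at 1.09 ± 0.92 (SD, n = 6; adjusted p = 0.00546, limma), positive on 6 of 6 slides, and PSBQ was not called at 0.26 ± 0.36. On set 2 both were called below 0, Cab-m7 at -4.28 and PSBQ at -6.07. Positive ratios are therefore called higher in SAM and negative ones lower in SAM, as the likely direction. Genes listed as markers of the meristem sample, which holds the P0 and P1 primordia, lay mostly on the SAM side by this reading. On sets 1 and 2, TE1 was at 6.77 ± 0.91 and 3.58 ± 0.38, rs2 at 1.67 ± 0.23 and 1.52 ± 0.34, and kn1 at 0.30 ± 0.25 and 1.95 ± 0.37 (SD, n = 6). lbl1 was at 2.60 ± 0.22 on set 1, and fea2 at 1.88 ± 0.34 and knox8 at 1.61 ± 1.27 on set 2. The exceptions were knox7, called on the seedling side of set 1 at -0.79 ± 0.37, and knox3, not called on set 2 at 0.003 ± 1.69. Green-tissue genes lay far on the other side, with ssu1 at -5.71 ± 0.60 on set 1 and -5.64 ± 0.40 on set 2, and psad1 at -10.01 ± 2.72 and -7.03 ± 0.69. The OCL genes are themselves the usual epidermal markers, and the only other genes of epidermal identity with values were brk1 and cr4, given below. Genes of dividing cells, the pcna and cyclin genes, were called higher in SAM in 4 of 4 cases on set 1 (median 1.07) and 1 of 2 on set 2 (median 0.56). Of all named genes, 27.1% on set 1 and 27.9% on set 2 were called higher in SAM. No gene of the vascular list had a value. The part of these tissue differences in the ratios below was not tested. In such bulk RNA, fewer cells of a type and less RNA per cell cannot be told apart.

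Of the OCL genes, ocl4 was called higher in SAM on both slide sets and ocl2 on set 1. The 2 spots of ocl4 on set 1 lay apart, with 6524 called at 2.80 and 12184 not called at -0.37. As gene means, ocl1 and ocl3 were not called. Both cuticle genes were lower in SAM, gl8 by 5.19-fold on set 1 and plt2 by 1.66-fold on set 2. A call here is an adjusted p under 0.05 in limma's moderated test, with Benjamini-Hochberg adjustment over all named genes (or all probes) of the set. On set 1, 2 of 3 OCL genes were called higher in SAM, against 27.1% of all named genes, and gl8 was called lower, against 45.2%. On set 2, 1 of 3 OCL genes was called higher in SAM, against 27.9% of all named genes, and plt2 was called lower, against 45.7%. The median over all named genes was -0.24 on set 1 and -0.22 on set 2, while the median of the 3 OCL genes was 0.94 on set 1 and 0.14 on set 2. The set 1 median is the value of ocl2, which depended on the dye: with SAM in Cy5 alone, ocl1, ocl2 and ocl4 were at 0.10, -0.05 and 1.30. Spot by spot, set 1 had 2 of its 6 spots called higher in SAM and 1 called lower, where 31.5% and 31.0% of all 18302 probes were called in those directions. Set 2 also had 6 spots with values, of which 1 was called higher and 2 lower, against 33.4% and 31.2% of its 12027 probes.

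**Figure D1:**
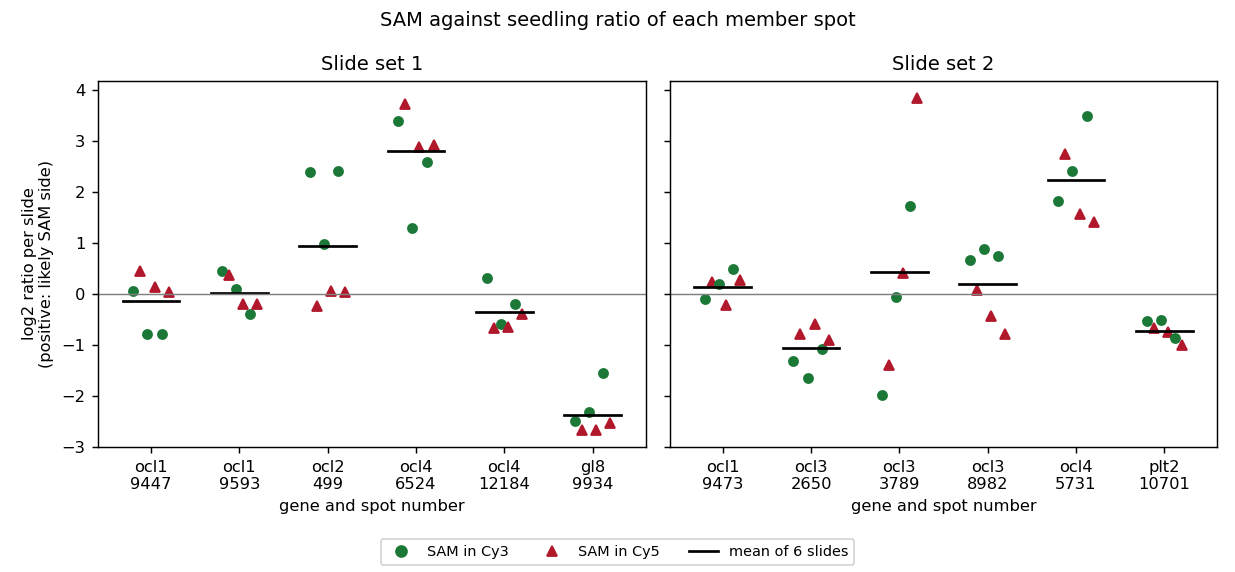
Log2 ratio (vertical axis) of each of the 12 spots on the 6 slides of its set, with circles for slides that had SAM RNA in Cy3, triangles for those with SAM RNA in Cy5, and a line at the mean; the horizontal axis gives the gene and spot number. The 6 points of spots 6524 and 5731 of ocl4 lie above 0, those of gl8, plt2 and spot 2650 of ocl3 lie below 0, and for ocl2 all 3 circles lie above all 3 triangles.

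ocl4 was the OCL gene with the greatest ratio on both sets. On set 2 its only spot, 5731, had log2 ratios of 1.81, 2.75, 2.41, 1.56, 3.49 and 1.41 in replicates 1 to 6. Every slide lay on the SAM side, with replicate 5 the highest and replicate 6 the lowest. The mean was 2.24 ± 0.80 (SD, n = 6), that is 4.72-fold higher in SAM, with a 95% confidence interval of 3.03 to 7.36-fold and an adjusted p of 0.000268 (limma). This ratio was above that of 98.0% of the named genes of set 2. All 18 scans were positive, with means of 2.67 in the low, 1.96 in the medium and 2.10 in the high scans. The SD between scans of a slide was 0.834, larger than that of 81.9% of the probes of set 2. In replicate 5 the low scan was at 5.63, and the medium and high scans were at 2.59 and 2.27.

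On set 1, ocl4 had 2 spots, 6524 and 12184, whose ratios differed. Spot 6524 had log2 ratios of 3.40, 3.72, 1.29, 2.88, 2.59 and 2.92 in replicates 1 to 6, all on the SAM side. Replicate 3 was the lowest of them, well apart from the other 5. The mean was 2.80 ± 0.84 (SD, n = 6), or 6.96-fold higher in SAM, with an adjusted p of 0.000164 over all probes (limma). This spot moved with the scan setting: its mean was 4.37 in the low scans, 2.06 in the medium and 1.96 in the high scans, though all 18 scans were positive. Its SD between scans of a slide was 1.59, larger than that of 87.8% of the probes of set 1.

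Spot 12184 of ocl4 had log2 ratios of 0.30, -0.67, -0.60, -0.65, -0.19 and -0.39. Replicate 1 was the only slide above 0, and 15 of 18 scans were negative. Its mean of -0.37 ± 0.38 (SD, n = 6) was not called, with an adjusted p of 0.0649 over all probes (limma). Without replicate 1 the mean was -0.48 and the adjusted p 0.0322 (limma), a call in the direction opposite to spot 6524. Spot 6524 lay above spot 12184 on 6 of 6 slides, by 3.17 ± 0.83 (SD). An exact two-sided sign-flip test over the slides gave p = 0.0313, the smallest p that 6 slides allow, and 0.0781 after adjustment over the 5 pairs of spots compared within genes, a comparison added after the values were seen. Both spots are annotated to ocl4, with different clones.

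As the mean of its 2 spots, ocl4 on set 1 had log2 ratios of 1.85, 1.52, 0.34, 1.12, 1.20 and 1.27. All 6 slides were on the SAM side. The mean was 1.22 ± 0.50 (SD, n = 6), or 2.32-fold higher in SAM with a 95% confidence interval of 1.67 to 3.24-fold and an adjusted p of 0.00163 (limma). The gene mean was 2.04 in the low scans alone and 0.77 in the high scans alone, and was called in both.

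ocl2 had 1 spot, 499 on set 1, and its ratio depended on which dye the SAM RNA carried. Its log2 ratios were 2.38, 0.98 and 2.41 in replicates 1, 3 and 5, with SAM in Cy3, and -0.25, 0.05 and 0.04 in replicates 2, 4 and 6, with SAM in Cy5. The 3 slides of each dye orientation did not overlap, though the share of all probes that split this way was not counted. The mean over all slides was 0.94 ± 1.20 (SD, n = 6), or 1.91-fold higher in SAM with a 95% confidence interval of 1.35 to 2.72-fold and an adjusted p of 0.00675 (limma). The means of the orientations were 1.92 with SAM in Cy3 and -0.05 with SAM in Cy5. The dye term was 0.99, with an adjusted p of 0.0547 over named genes and 0.0380 over probes (limma). Dye terms were called for 2322 of all 18302 probes of set 1 and 21 of its 582 named genes.

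The call of ocl2 rested on the dye term. Without that term the same mean had an adjusted p of 0.0856 (limma), and the slides with SAM in Cy5 taken alone gave an adjusted p of 0.775 (limma). The ratio also varied with the scan, at 1.73 in the low, 0.58 in the medium and 0.50 in the high scans. Its SD between scans of a slide was 1.17, where the median over all probes was 0.164.

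ocl1 was represented by 3 spots of the same clone, 9447 and 9593 on set 1 and 9473 on set 2, and none was called. On set 1 the mean of its 2 spots was 0.25, 0.41, -0.34, -0.03, -0.60 and -0.08 in replicates 1 to 6. The slides lay on both sides of 0, with 2 positive and 4 negative. The mean was -0.07 ± 0.37 (SD, n = 6), with a 95% confidence interval of -0.41 to 0.28 and an adjusted p of 0.677 (limma).

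Spot 9447 of ocl1 had log2 ratios of 0.06, 0.45, -0.78, 0.13, -0.79 and 0.03, and spot 9593 had 0.44, 0.36, 0.09, -0.19, -0.40 and -0.19. The spots differed by -0.17 ± 0.46 (SD), spot 9447 minus spot 9593, with 3 slides each way and an exact sign-flip p of 0.438, adjusted 0.547. On set 2, spot 9473 had -0.11, 0.22, 0.19, -0.22, 0.49 and 0.28. With 4 positive slides and 2 negative, the mean there was 0.14 ± 0.26 (SD, n = 6), with an interval of -0.13 to 0.41 and an adjusted p of 0.293 (limma). These spots were among the steadier ones between scans: their SDs between scans of a slide were 0.0745, 0.104 and 0.0768, against medians over all probes of 0.164 on set 1 and 0.171 on set 2.

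ocl3 had 3 spots with values, 2650, 3789 and 8982, all on set 2, and they lay in different directions. Spot 2650 had log2 ratios of -1.33, -0.79, -1.65, -0.59, -1.08 and -0.90. Every slide and all 18 scans were on the seedling side. The mean was -1.06 ± 0.38 (SD, n = 6), or 2.08-fold lower in SAM, with an adjusted p of 0.00021 over all probes (limma).

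Spot 8982 of ocl3 had log2 ratios of 0.66, 0.88 and 0.75 in replicates 1, 3 and 5, with SAM in Cy3, and 0.07, -0.44 and -0.79 in replicates 2, 4 and 6, with SAM in Cy5. As for ocl2, the slides of each dye orientation did not overlap, and the share of all probes that split this way was not counted. The mean of 0.19 ± 0.69 (SD, n = 6) was not called, with an adjusted p of 0.228 (limma). The dye term of 0.57 had an adjusted p of 0.0463 (limma), and dye terms were called for 1012 of 12027 probes of set 2. Spot 2650 lay below spot 8982 on 6 of 6 slides, by -1.25 ± 1.02 (SD), with an exact sign-flip p of 0.0313, again the smallest possible, and 0.0781 after adjustment over the 5 pairs.

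Spot 3789 of ocl3 had log2 ratios of -1.98, -1.40, -0.07, 0.40, 1.71 and 3.85, with 3 slides on each side of 0. Its scans ran from -5.72 to 9.01, and in 1 scan it held the value most often repeated among the spots of that scan. The SD between scans of a slide was 2.81, larger than that of 96.8% of the probes of set 2. The mean of 0.42 ± 2.13 (SD, n = 6) had an adjusted p of 0.657 (limma).

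As the mean of its 3 spots, ocl3 had log2 ratios of -0.88, -0.71, -0.28, -0.21, 0.46 and 0.72. The slides again fell on both sides of 0, with 2 positive and 4 negative. The mean was -0.15 ± 0.63 (SD, n = 6), with a 95% confidence interval of -0.72 to 0.42 and an adjusted p of 0.587 (limma). Leaving out spot 3789, a choice made after its scans were seen, gave a mean of -0.43 with an adjusted p of 0.00437 (limma), a call on the seedling side.

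**Figure D2:**
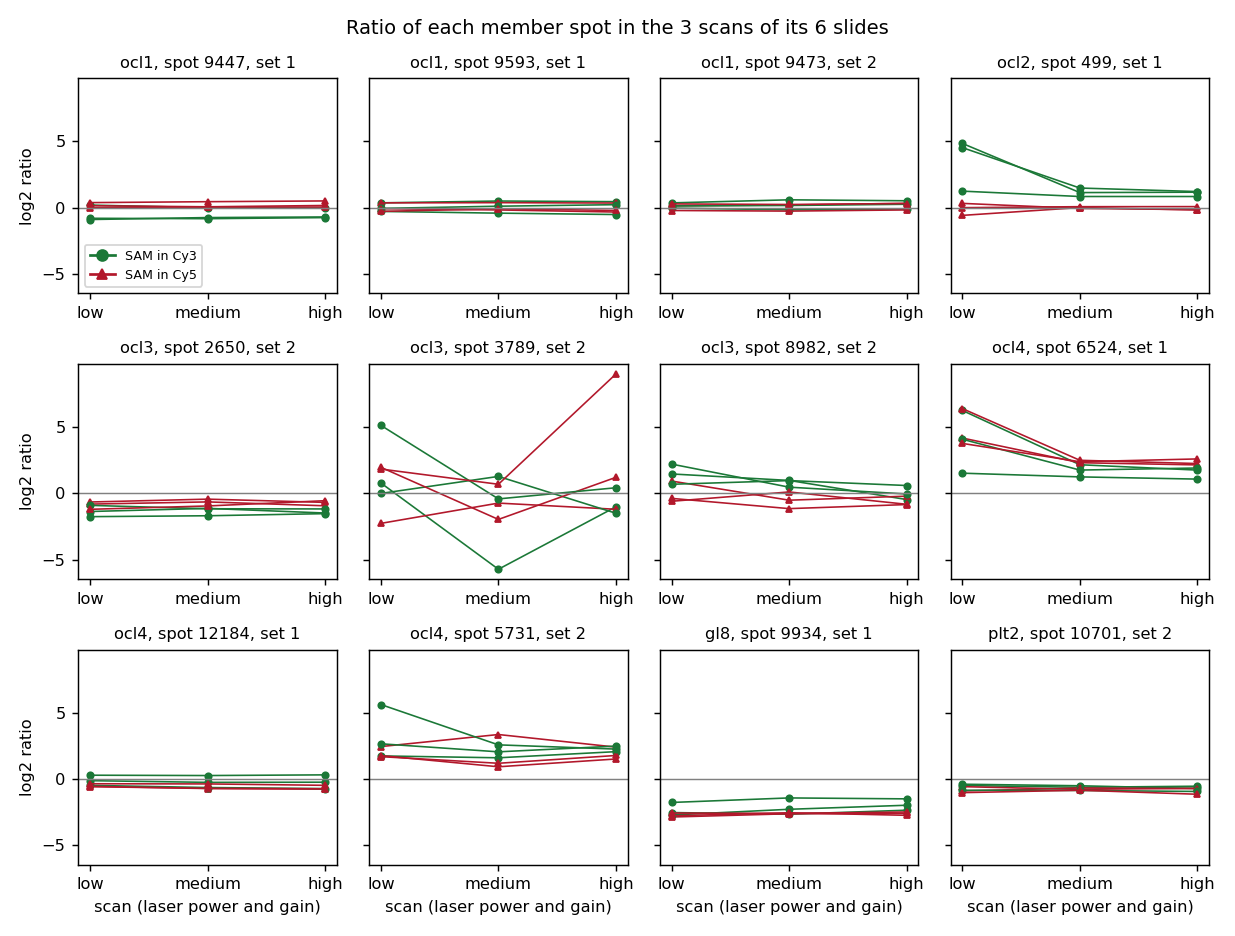
Log2 ratio (vertical axis) of each of the 12 spots in the low, medium and high scans (horizontal axis), with a line for each of the 6 slides, circles for SAM RNA in Cy3 and triangles for SAM RNA in Cy5. The lines of ocl1 and plt2 are nearly level, and those of gl8 stay between -2.85 and -1.41. Those of ocl4 spot 6524 come down from a mean of 4.37 in the low scans to 1.96 in the high scans, and those of ocl3 spot 3789 cross between -5.72 and 9.01.

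gl8, the wax gene, had the lowest ratio of the 4 genes on set 1. Its only spot, 9934 on set 1, had log2 ratios of -2.50, -2.68, -2.31, -2.67, -1.55 and -2.54 in replicates 1 to 6. Every slide and all 18 scans lay on the seedling side, and replicate 5 stood above the other 5 slides. The mean was -2.38 ± 0.43 (SD, n = 6), or 5.19-fold lower in SAM with a 95% confidence interval of 4.09 to 6.58-fold and an adjusted p of 2.03e-05 (limma). Of the named genes of set 1, 12.9% had a lower ratio, so many genes differed more between these tissues. The means of gl8 were -2.52 in the low, -2.34 in the medium and -2.26 in the high scans. Its SD between scans of a slide was 0.197, where the median over all probes was 0.164. Replicate 3 ran from -2.70 in the low scan to -1.97 in the high scan.

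plt2, the lipid transfer gene, was also lower in SAM, on the separately normalized set 2. Its spot 10701 on set 2 had log2 ratios of -0.54, -0.67, -0.52, -0.76, -0.87 and -0.996. All 6 slides and all 18 scans were on the seedling side, in a narrow range. The mean was -0.73 ± 0.19 (SD, n = 6), or 1.66-fold lower in SAM with a 95% confidence interval of 1.43 to 1.92-fold and an adjusted p of 0.000319 (limma). Of the named genes of set 2, 35.4% had a lower ratio. A rule that also asks for a 2-fold difference would not call it.

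Because a slide holds all genes of a set, the OCL genes could be set against the cuticle gene on each slide. On set 1, the mean of ocl1, ocl2 and ocl4 minus gl8 was 3.99, 3.24, 2.64, 3.05, 2.55 and 2.95 log2 units in replicates 1 to 6, a mean of 3.07 ± 0.52 (SD, n = 6). The difference averaged 3.76 in the low scans alone, 2.795 in the medium and 2.662 in the high scans alone. On set 2, the mean of ocl1, ocl3 and ocl4 minus plt2 was 0.82, 1.43, 1.30, 1.14, 2.35 and 1.80, a mean of 1.47 ± 0.54 (SD, n = 6). No test is attached to these differences, since the genes were grouped with their ratios known.

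Any gene set against gl8 or plt2 shares the low ratio of that gene. The median of all named genes lay 2.12 ± 0.43 above gl8 and 0.48 ± 0.16 above plt2 (SD, n = 6 each), also on 6 of 6 slides. Against that background, the difference from gl8 was 2.31 ± 0.76 for ocl1, 3.31 ± 0.95 for ocl2 and 3.59 ± 0.72 for ocl4 (SD, n = 6 each), so ocl1 lay about where the median gene did. On set 2 the difference from plt2 was 0.87 ± 0.38 for ocl1 and 2.97 ± 0.81 for ocl4 (SD, n = 6 each). ocl3 minus plt2 was 0.58 ± 0.80 (SD, n = 6) and positive on 4 of 6 slides, so that ocl3 and plt2 overlapped. The sets were normalized separately and hold different cuticle genes, so the size of the gap was not compared between them.

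**Figure D3:**
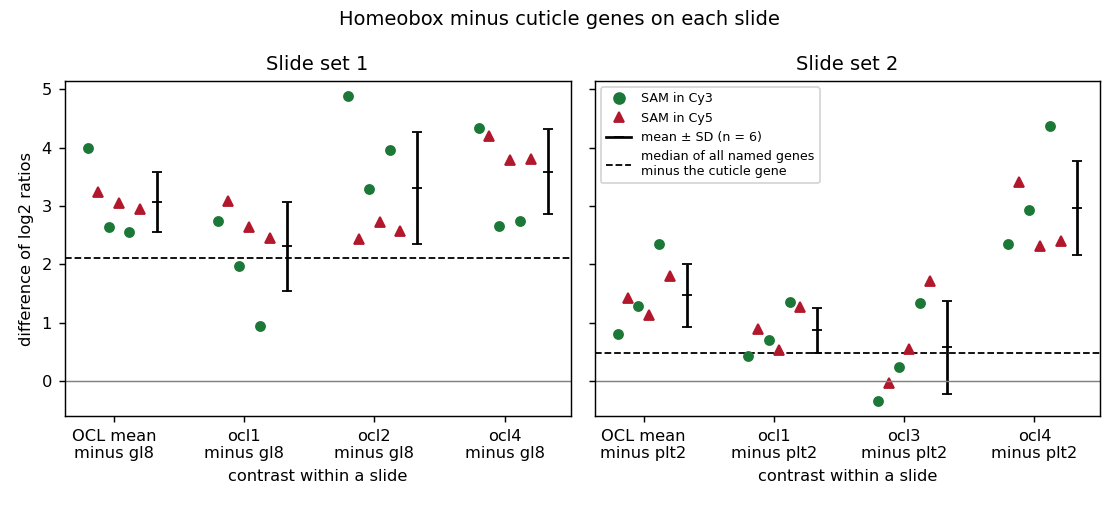
Difference of log2 ratios within a slide (vertical axis) between the mean of the OCL genes, or each OCL gene, and gl8 (set 1, left) or plt2 (set 2, right), with circles for SAM RNA in Cy3, triangles for SAM RNA in Cy5 and bars for the mean ± SD over 6 slides. The dashed line marks the median of all named genes minus the cuticle gene, at 2.12 on set 1 and 0.48 on set 2. All points lie above 0 but for 2 slides of ocl3 minus plt2, the lowest at -0.34.

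Other genes of epidermal identity were few on the slides. brk1, a subunit of the complex that drives actin assembly in lobed epidermal cells, was at 0.14 ± 0.49 on set 1, with an adjusted p of 0.487, and at -0.33 ± 0.28 on set 2, with an adjusted p of 0.0394 (limma; SD, n = 6). On set 2 its slides ran from -0.68 to 0.15, and the call was lost in 9 of 19 alternatives, among them the removal of any replicate other than 2. cr4, a receptor kinase needed for epidermis and aleurone, was at 0.80 ± 2.49 on set 2, with slides from -1.71 to 5.00 and an adjusted p of 0.389 (limma). Without replicate 5 alone, cr4 was at 1.60 with an adjusted p of 0.0473 (limma), a call on the SAM side. With all slides, the 1 gene of this list on set 1 did not pass. On set 2, 1 of 2 passed, on the seedling side, where 45.7% of all named genes were called.

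The lipid genes around gl8 and plt2 did not all lie on the same side. No gene of the wax and cutin list other than gl8 had a value, and the lipid transfer list had 1, PLTP, also called plt1. PLTP was at 0.42 ± 0.43 on set 1 (SD, n = 6), called higher in SAM with an adjusted p of 0.0359 (limma), a call lost in 8 of 19 alternatives, including the removal of replicate 2, 3, 5 or 6. Of the genes of fatty acid supply, 1 of 1 on set 1 and 3 of 4 on set 2 were called lower in SAM, where 45.2% and 45.7% of all named genes were. Of the 4 on set 2, 1 was called higher.

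Those lower in SAM on set 2 were FAD8 at -3.01 ± 0.20, fad6 at -1.86 ± 0.35 and ACC1 at -0.47 ± 0.42 (SD, n = 6), with adjusted p of 5e-07, 3.48e-06 and 0.000675 (limma). ACC1 had a dye term of 0.39 with an adjusted p of 0.0321, and was at -0.09 with SAM in Cy3 alone (adjusted p = 0.549) and at -0.86 with SAM in Cy5 alone (adjusted p = 0.00291, limma). FAD8 and fad6 belong to the desaturases of plastid membrane lipids and ACC1 is an acetyl-CoA carboxylase gene. fad7, another plastid desaturase gene, was at -4.92 ± 2.14 on set 1, with an adjusted p of 3.8e-06, and at 0.67 ± 0.35 on set 2, with an adjusted p of 0.000423 (limma). Its 2 spots on set 2 averaged -0.18 and 1.53, and its spot on set 1 had a dye term of 1.93 with an adjusted p of 0.00451 (limma).

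Among homeobox genes outside the OCL family, 9 matched by name on each set, of which 5 on set 1 and 4 on set 2 were called higher in SAM, where 27.1% and 27.9% of all named genes were. Lower in SAM were 2 and 1 of them, where 45.2% and 45.7% of all named genes were. The 5 of set 1 became 3 without replicate 1, 2 or 6. Of these matches Hb is a haemoglobin gene and phb1, phb2 and phb3 are prohibitin genes. Without them, 4 of 6 on set 1 were called higher and 1 lower, and 4 of 7 on set 2 were called higher and 3 not called, with medians of 0.50 and 1.40. rld1, which marks the upper side of young leaves, was at 1.49 ± 0.24 on set 1 and 1.40 ± 0.31 on set 2 (SD, n = 6), with adjusted p of 5.48e-05 and 2.35e-05 (limma). lg3, a knotted-type gene, was at 0.70 ± 0.40 and 3.22 ± 0.77, and kn1, the knotted meristem gene, at 0.30 ± 0.25 and 1.95 ± 0.37. All 4 of these values were called. knox7 was lower in SAM on set 1 at -0.79 ± 0.37 (SD, n = 6), with an adjusted p of 0.0016 (limma). Among the name-only matches Hb was lower in SAM, at -2.39 ± 0.77 and -1.30 ± 0.32, and phb2 was at 0.54 ± 0.21 on set 1.

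Several of these genes also had spots that lay far apart, as ocl4 and ocl3 did. The 2 spots of kn1 on set 2 averaged -0.17 and 4.06, and its 3 spots on set 1 ran from -0.22 to 0.81. The 3 spots of rld1 on set 1 were closer together, from 1.35 to 1.67.

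**Figure D4:**
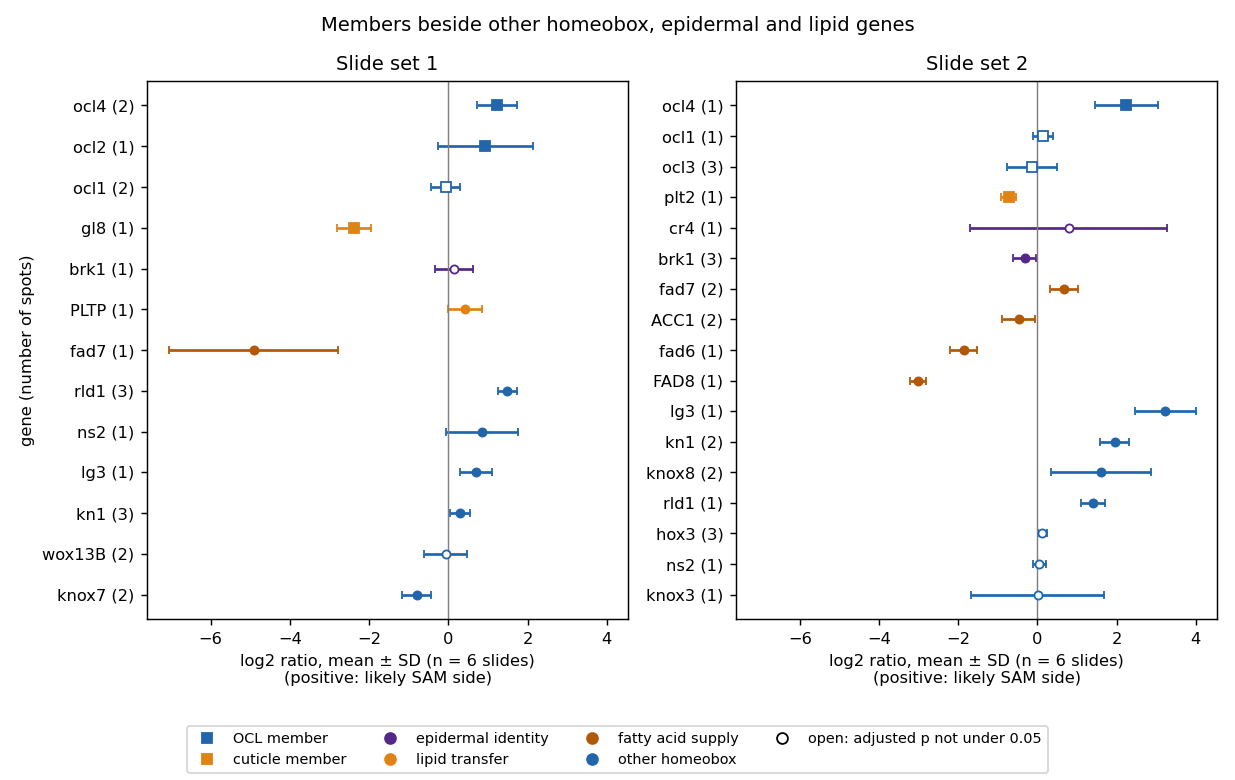
Log2 ratio of each gene (horizontal axis, mean ± SD over 6 slides, positive on the likely SAM side) for the OCL and cuticle genes (squares) and for genes of epidermal identity, lipid transfer, fatty acid supply and the homeobox genes outside the OCL family (circles), without the name-only matches; numbers in brackets give the spots of a gene, and open symbols were not called. ocl4 lies among the called homeobox genes on the SAM side of both sets, ocl1 and ocl3 lie about 0 with hox3 and ns2 on set 2, and gl8 and plt2 lie on the seedling side.

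The named genes whose ratios over the 6 slides were nearest to those of each gene were found by the root mean square difference, in log2 units. For gl8 they were vpp3 at 0.205, gln1 at 0.357 and mir3 at 0.384, of 581 genes compared. For plt2 they were tub6 at 0.170, LOC732725 at 0.235 and LOC542226 at 0.248. For ocl4 they were GIF3 at 0.375, mEmBP-1a at 0.409 and HDT1 at 0.428 on set 1, and set105 at 0.715, MCM7 at 0.733 and fea2 at 0.762 on set 2. For ocl2, with its dye-dependent ratios, the nearest were farther off, LOC100101530 at 0.610, dmt101 at 0.631 and COR413-TM1 at 0.635. ocl1 had SDG123 at 0.196, kik1 at 0.224 and cdc2 at 0.227 on set 1, and trh2 at 0.187, ada2 at 0.196 and cat1 at 0.208 on set 2. ocl3 had LOC542190 at 0.445, vdac1b at 0.457 and vpp3 at 0.470. The measure uses only 6 slides of the same RNA pools and says how alike the ratios were.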

How the data were processed

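Per the labels, about 10 ng of total RNA was amplified with T7 polymerase, 2 µg of amplified RNA was labelled, and 3 of 7 scans of each slide were deposited (36 scans of 12 slides). The deposited values were read as natural log ratios: 57 of 16344 pairs of repeated values matched the natural log, against 0 for log2 and 4 for log10 (tolerance 2e-05), the base being unstated. Background handling and normalization: not given in the sources used here. Slides of opposite dye orientation correlated at 0.701 to 0.861 on set 1 and 0.597 to 0.745 on set 2, so the values were already turned to run the same way. In the high scan of replicate 4 of set 1 the source label names seedlings for both dyes; its sample name was followed.

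Values were converted to log2 here. Scans were centred on their medians, which lay between -0.08 and 0.06, and the 3 of a slide averaged. The 6 slides of a set were fitted in limma 3.58.1 (lmFit and eBayes, R 4.3.3) with a mean and a term for the dye, with Benjamini-Hochberg adjustment over 18302 and 12027 probes or over 582 and 455 named genes and a threshold of 0.05. The sets were never tested against each other. Spots without a value (898 and 2001) were left out, 53 identical spots of set 2 were counted as 1, and 23 probes of several genes on set 1 were left out of gene means. Names came from the platform annotation and from RefSeq genes (Zm-B73-REFERENCE-NAM-5.0; no coordinates taken), in which 561 of 582 and 441 of 455 genes matched. The fit was tested on simulated data.

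The genes, the lists and the tests were chosen with earlier results of these data known. The text names the 6 genes and their spots, and the measured genes of the epidermal identity, lipid transfer and fatty acid lists. Of the homeobox list it names the 3 with the smallest adjusted p each way among those called. It also names some tissue and photosynthesis genes and the 3 nearest genes by root mean square difference. Genes of dividing cells were only counted. Nothing says that the pools of a tissue came from separate growths, so p-values measure the spread between these pools and slides. The number of slides limits the precision. Alternatives were single scans, no centring, scaled slides, no dye term, robust eBayes, a 2-fold limit, single dye orientations, median gene values, probes of several genes kept, and each replicate left out.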

Additional observations from a re-analysis of the deposited data

Results flagged for a closer look

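The log2 ratio of gl8 in replicate 5, -1.55, stood apart from the other 5 slides, which ran from -2.68 to -2.31. Its gap to the nearest slide was 0.675 of the whole range, above Dixon's critical value for 6 samples, for the gene and for its only spot alike. Chance gives such a gap in about 1 in 20 groups, and 22 were examined. With each replicate left out in turn, gl8 was still called lower in SAM.

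The ratio of ocl2 differed between the dye orientations, with a dye term of 0.988 and an adjusted p of 0.0380 over all probes (limma). Its means were 1.92 with SAM in Cy3 and -0.05 with SAM in Cy5. The ratio of ocl3 spot 8982 did so too, with a dye term of 0.574 and an adjusted p of 0.0463 (limma), and means of 0.76 with SAM in Cy3 and -0.38 with SAM in Cy5. Both spots were higher where SAM RNA carried Cy3, and both had larger scan-to-scan SDs, 1.17 and 0.754, than the median probe of their sets. Dye terms were called for 2322 of all 18302 probes of set 1 and 1012 of 12027 of set 2 (limma). What sets the dye dependence was not tested.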

How the results depend on the processing

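SAM and seedling RNA of a replicate met on 1 slide as a ratio, so the fits within each set were paired by construction. Across the 2 slide sets, which share replicate numbers, no paired analysis was possible because they were normalized separately and never tested against each other. gl8 and ocl4 were called in the same direction in every alternative (17 each for gl8 on set 1 and ocl4 on set 2, 19 for ocl4 on set 1), with gl8 between -2.63 and -2.12, ocl4 between 0.77 and 2.04 on set 1 and between 1.91 and 2.66 on set 2. For ocl4 on set 1, median gene values and keeping probes of several genes could not move the value of 1.22. The median of 2 spots is their mean, and neither spot names several genes. No alternative left out either of its 2 spots, of which 6524 was at 2.80 and 12184, not called, at -0.37. plt2 ranged from -0.81 to -0.65 and lost its call only under the 2-fold limit, which left 0 cuticle genes called on set 2 (limma; its adjusted p stayed at 0.000319). ocl2 turned to -0.0523 with SAM in Cy5 alone, which with the fit without a dye term and the 2-fold limit left 1 OCL gene called on set 1 in place of 2. ocl1 was called in none of 19 and 17 alternatives. ocl3 was called only without spot 3789, spot 8982 of ocl3 only in the 3 slides with SAM in Cy3, and spot 12184 of ocl4 only without replicate 1. The difference of the OCL genes from gl8 was 3.76 in the low, 2.795 in the medium and 2.662 in the high scans alone, against 3.07. The 2-fold limit reduced the calls from 11437 to 6619 probes and from 421 to 256 genes on set 1, and from 7769 to 3875 probes and from 335 to 188 genes on set 2. Among the listed genes, the homeobox genes outside the OCL family called higher in SAM on set 1 ranged from 1 to 5. Asking for a value in every scan removed no probe. Without intensities, how far each spot stood above background was not analysed here, so weak spots could not be told from strong ones except by their scan-to-scan SD.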
